A study of Mus musculus with 2 samples.

Results

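The genes described here are the Microprocessor, Dicer and their cofactors: Drosha, Dgcr8, Ddx5, Ddx17, Srrt, Xpo5, Dicer1, Tarbp2 and Prkra. They were chosen by their known role in miRNA biogenesis and found by Ensembl identifier, and all 9 were listed among the 43629 genes of the count files. Polyadenylated RNA was sequenced from 2 Dicer_KO libraries of mouse embryonic stem cells (mESCs), in which the Dicer1 gene had been cut with paired CRISPR/Cas9 guides. Replicate 1 was taken at passage 7 and replicate 2 at passage 4. Both libraries carried the same genotype label (Dicer knockout) and the same 129/Ola background, and the parental line of the study was E14TG2a, a mESC line that lacks a working Hprt gene. The study isolated clonal lines with 2 different Dicer1 deletions. The labels do not say which library came from which line, so that line, passage and library cannot be told apart. No wild-type library was analysed here. The data therefore hold levels in Dicer_KO cells and differences between 2 libraries of them, with no test between conditions and no p-values.

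In canonical miRNA biogenesis, the RNase III enzyme DROSHA and its partner DGCR8, together the Microprocessor, cut hairpins out of primary transcripts in the nucleus. XPO5 carries the resulting precursor to the cytoplasm, where DICER, a second RNase III enzyme, cuts it to a duplex with the help of the double-stranded RNA binding proteins TARBP2 and PACT (encoded by Prkra). The RNA helicases DDX5 and DDX17 associate with the Microprocessor, and ARS2 (encoded by Srrt) links it to the nuclear cap-binding complex. DICER acts downstream of the Microprocessor, and most mature miRNAs of embryonic stem cells need both steps.

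The guides are shown first because they define what Dicer1 reads can mean in these cells. The first line below is the site of sgRNA 1 with its PAM in capitals, and the other lines are the 20-base guides alone.

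sgRNA 1: ggagtttaaacctacaggcgCGG
sgRNA 2: ttgaatggaacaactttcca
sgRNA 3: tgccatgcgtgagaggatac

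The guide sgRNA 1 matched 2 annotated Dicer1 transcripts and no transcript of another gene. Its site, with the PAM, lies on the minus strand at chr12:104706584-104706606 (GRCm38), in coding sequence of exon 16. The study places sgRNA 2 between exons 22 and 23 and sgRNA 3 between exons 23 and 24. Neither guide matched an annotated transcript, and no genome sequence was used to place them. Cutting with guides 2 and 3 removes exon 23, which holds 871 of the 9851 bases (8.84%) of the longest coding transcript and 15.2% of its coding bases. Cutting with guides 1 and 3 removes 2466 spliced bases, or 25.0% of that transcript. Exons 1 to 15 (2685 bases) and exons 24 to 27 (4525 bases) lie outside both deletions, so most of the transcript can still give reads. The counts are per gene and not per exon, and they do not check the deletions. The map of the Dicer1 transcript shows the segments.

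**Figure D1:**
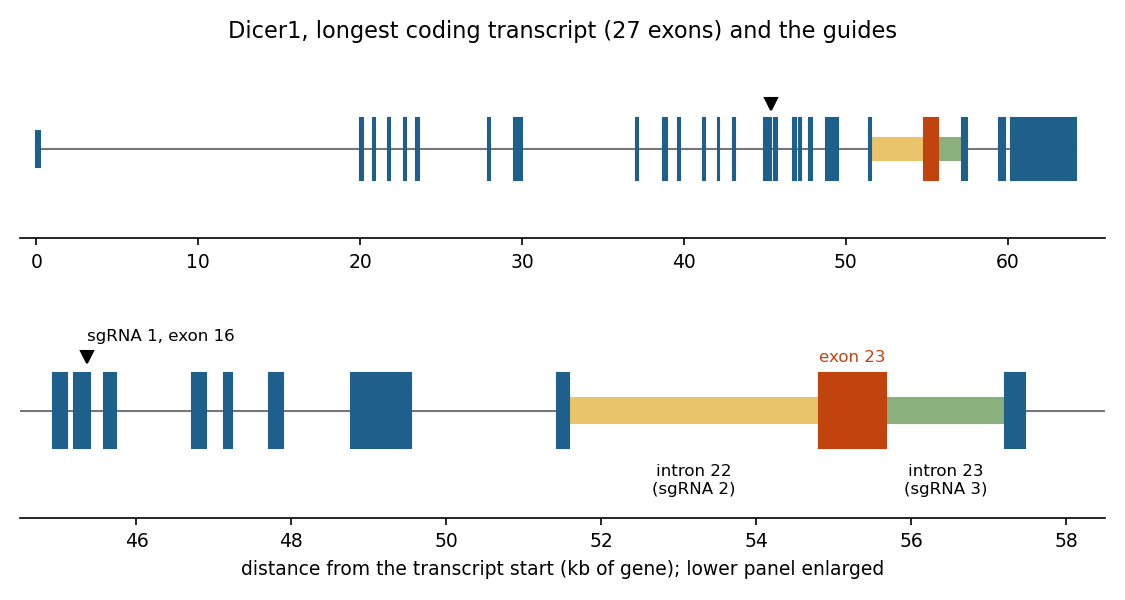
Exons of the longest coding Dicer1 transcript against the distance along the gene from its start in kilobases, whole gene above and the edited stretch enlarged below. The triangle marks the sgRNA 1 site, red is exon 23, and yellow and green are the introns in which the study places sgRNA 2 and sgRNA 3. The deletion between guides 2 and 3 takes exon 23 (871 bases), and that between guides 1 and 3 takes 2466 spliced bases of 9851.

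The libraries were deep and similar in size, with 41710122 and 41566184 counts, of which the 9 genes took 0.258% and 0.274%. A gene with 3 counts, the limit that a count of 0 allows, stands at 0.0719 and 0.0722 counts scaled to library size (CPM), so every one of the 9 genes was far above the detection limit. The libraries differed by much more than sampling noise (chi-square per degree of freedom of 140 over 17788 genes), and they were kept as 2 samples. All 10 embryonic stem cell markers were present, at a summed 9707 and 6303 CPM. In CPM 3 of them, Pou5f1 included, were lower in replicate 1. Most of the gap came from Dppa5a (4792 and 2041 CPM), which alone of the 10 was past 2-fold. Of the markers of other cells, 5 of trophoblast summed to 16.6 and 4.62 CPM, and the 4 with enough counts (Hand1, Elf5, Gata3 and Eomes) were past 2-fold higher in replicate 1. The 6 primitive endoderm markers summed to 16.3 and 8.54 CPM, of which Gata4, short of 2-fold, gave 14.0 and 7.65 CPM. Gata6 (16 and 5 counts) and Dab2 (52 and 17 counts) were past 2-fold higher in replicate 1, on few counts. The 4 neuroectoderm markers summed to 48.8 and 52.6 CPM, of which Nes gave 42.5 and 44.6 CPM. Pax6 was lower in replicate 1 (3.93 and 5.92 CPM), Sox1 was not (2.42 and 2.09 CPM), and Neurog2 had 0 and 1 counts. The 8 fibroblast markers summed to 22.4 and 18.0 CPM, of which Thy1 gave 19.7 and 14.9 CPM. Of the other fibroblast markers, Postn was at 0 in both libraries, Dcn had 0 and 19 counts, and 5 of the 8 had too few counts for a ratio. The part of these cells in the differences below was not tested, and in bulk RNA fewer cells of a type and less RNA per cell cannot be told apart.

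Levels are given as CPM per kilobase of annotated exon (RPKM), the scale on which genes can be compared with each other, with the mean and SD over 2 libraries. Intervals are exact 95% Poisson intervals and cover counting error only. Per length, Dicer1 was the lowest of the 9 genes and the helicase Ddx5 the highest.

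Dicer1 (ENSMUSG00000041415, chr12:104687742-104751952, minus strand), the edited gene, kept 1343 counts in replicate 1 and 1510 in replicate 2. These are 32.2 CPM (30.5 to 34.0) and 36.3 CPM (34.5 to 38.2). Transcript from the edited locus was thus counted at a level well above the limit in both libraries. Per length the level was 1.92 and 2.17 RPKM (mean 2.05 ± 0.174, n = 2), and 36.4% of the 17637 genes tested with a length were lower. The annotated exons of Dicer1 sum to 16750 bases while its longest coding transcript has 9851, and with that length the mean was 3.48 RPKM. Dicer1 was the lowest of the 9 under both lengths. Both lengths still count the bases that the deletions remove, 871 or 2466 of the 9851 of that transcript. The per-length levels of Dicer1 are therefore understated and the folds over Dicer1 given below are overstated. By how much was not computed, since the labels do not name the deletion of each library.

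Drosha (ENSMUSG00000022191, chr15:12824815-12935291, plus strand), the nuclear RNase III of the Microprocessor, had 12509 counts in replicate 1 and 9041 in replicate 2. Its level was 50.5 and 36.6 RPKM (mean 43.6 ± 9.82, n = 2), above 93.1% of genes. Dgcr8 (ENSMUSG00000022718, chr16:18253948-18289246, minus strand), which encodes its RNA-binding partner, had 3316 and 3616 counts. Its level was 10.3 and 11.3 RPKM (mean 10.8 ± 0.688, n = 2) and 70.2% of genes were lower. Drosha was above Dgcr8 in both libraries, 4.89-fold (counting interval 4.71 to 5.08) in replicate 1 and 3.24-fold (3.12 to 3.37) in replicate 2. With coding transcript lengths the ratios were 3.57 and 2.36. The 2 subunits of the Microprocessor were thus not at equal RNA levels in either library, and the ratio between them differed 1.51-fold between the libraries.

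The helicases gave most of the reads. Ddx5 (ENSMUSG00000020719, chr11:106780355-106789185, minus strand) had 43093 counts in replicate 1 and 57137 in replicate 2. Its level was 179 and 238 RPKM (mean 208 ± 41.8, n = 2), above 99.0% of genes. Ddx17 (ENSMUSG00000055065, chr15:79527736-79546741, minus strand), its close paralog, had 30924 and 19626 counts, which are 97.0 and 61.8 RPKM (mean 79.4 ± 24.9, n = 2). Together the pair took 68.7% of the counts of the 9 genes in replicate 1 and 67.4% in replicate 2. Their summed counts were close (74017 and 76763) while their balance was not: Ddx5 was 1.84-fold above Ddx17 in replicate 1 (1.82 to 1.87) and 3.85-fold above it in replicate 2 (3.79 to 3.92), a 2.09-fold difference in the ratio. Of the 50-base stretches of the Ddx5 transcript, 22.6% also occur in Gm12183, a processed pseudogene on chromosome 11 with 5020 and 5444 counts, so that Ddx5 counts are uncertain to the extent that reads were split between the copies. No 50-base stretch of Ddx17 occurred in another gene.

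Srrt (ENSMUSG00000037364, chr5:137295704-137307674, minus strand), which encodes ARS2, had 8864 counts in replicate 1 and 14148 in replicate 2. Its level was 40.5 and 64.9 RPKM (mean 52.7 ± 17.2, n = 2), above 94.6% of genes. Set against Drosha, the Srrt level was 0.802 times that of Drosha in replicate 1 (0.780 to 0.824) and 1.77 times in replicate 2 (1.72 to 1.82). The change of places depends on the length used: with coding transcript lengths Srrt was above Drosha in both libraries, 1.07-fold and 2.36-fold.

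Xpo5 (ENSMUSG00000067150, chr17:46202782-46243598, plus strand), the export receptor of precursor miRNAs, had 5249 and 6883 counts. Its level was 18.3 RPKM in replicate 1 and 24.1 RPKM in replicate 2 (mean 21.2 ± 4.10, n = 2), above 83.9% of genes. It was 9.54-fold (8.99 to 10.1) and 11.1-fold (10.5 to 11.8) above Dicer1, which acts on the precursors after export.

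With the union of exons as length, the Dicer cofactors were the lowest genes after Dicer1 itself, whereas with coding transcript lengths Prkra and then Dgcr8 were. Tarbp2 (ENSMUSG00000023051, chr15:102518192-102523676, plus strand) had 1676 and 1560 counts and 8.83 and 8.25 RPKM (mean 8.54 ± 0.412, n = 2). Prkra (ENSMUSG00000002731, chr2:76629898-76648015, minus strand) had 747 counts in replicate 1 and 387 in replicate 2, or 8.83 and 4.59 RPKM (mean 6.71 ± 2.998, n = 2), and no member had fewer counts. The paralogous cofactors were level in replicate 1, where Tarbp2 was 1.00 times Prkra (0.918 to 1.09), and apart in replicate 2, where it was 1.80 times Prkra (1.61 to 2.01). That equality depends on the length used: with coding transcript lengths Tarbp2 was 2.38 times Prkra in replicate 1 and 4.27 times in replicate 2. Both cofactors exceeded Dicer1 in both libraries, Tarbp2 4.60-fold and 3.80-fold and Prkra 4.59-fold and 2.12-fold. With coding transcript lengths these ratios were 8.07 and 6.68 for Tarbp2 and 3.39 and 1.56 for Prkra. All of these folds are overstated, because the Dicer1 lengths count the deleted bases. Of the 50-base stretches of the Tarbp2 transcript, 49.1% also occur in the annotated Gm18584, which the count files do not list. If reads with several hits were left out or split, the Tarbp2 level is understated. Its ratios to Prkra and Dicer1 and its place below Dgcr8 are uncertain to that extent.

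**Figure D2:**
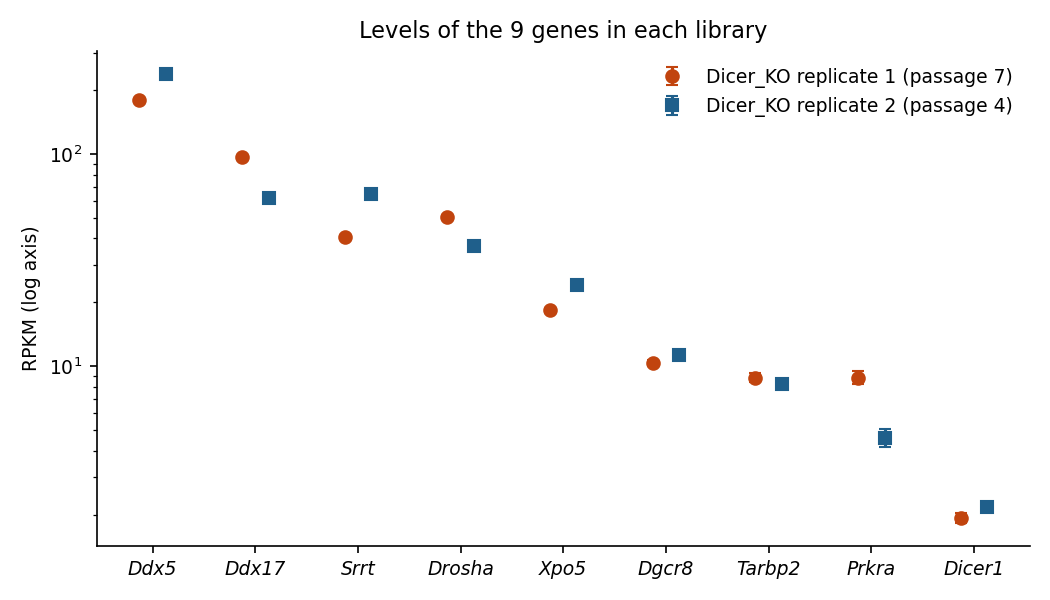
Level of each gene in RPKM on a log axis, with 1 point per library and 95% counting intervals as bars. The levels run from 1.92 RPKM for Dicer1 in replicate 1 to 238 RPKM for Ddx5 in replicate 2.

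In order of mean RPKM the genes ran Ddx5, Ddx17, Srrt, Drosha, Xpo5, Dgcr8, Tarbp2, Prkra and Dicer1. Neighbours whose libraries did not overlap were Ddx5 and Ddx17 (2.63-fold between the means), Drosha and Xpo5 (2.05-fold), Xpo5 and Dgcr8 (1.96-fold), Dgcr8 and Tarbp2 (1.27-fold), and Prkra and Dicer1 (3.28-fold). Ddx17 and Srrt, Srrt and Drosha, and Tarbp2 and Prkra had libraries that overlapped on this scale. Within a library the first 2 pairs changed places, and Tarbp2 was level with Prkra in replicate 1 and above it in replicate 2. With coding transcript lengths only the overlap of Ddx17 and Srrt held among these pairs. Srrt was then above Drosha (70.3 and 113 against 65.6 and 47.6 RPKM) and Tarbp2 above Prkra (26.4 and 24.6 against 11.1 and 5.77 RPKM), with no overlap of the libraries in either pair. Tarbp2 (mean 25.5 RPKM) also moved above Dgcr8 (mean 19.3 RPKM), with libraries that overlapped. It then stood next to Xpo5, with libraries that overlapped (Xpo5 24.8 and 32.6, Tarbp2 26.4 and 24.6 RPKM) and Tarbp2 the higher in replicate 1. The order of the means held for every other pair of neighbours in the first order. The 4 highest genes under both lengths all encode nuclear proteins that act at or beside the Microprocessor step. Dgcr8, the other Microprocessor subunit, was not among them and was below Xpo5 under both lengths.

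**Figure D3:**
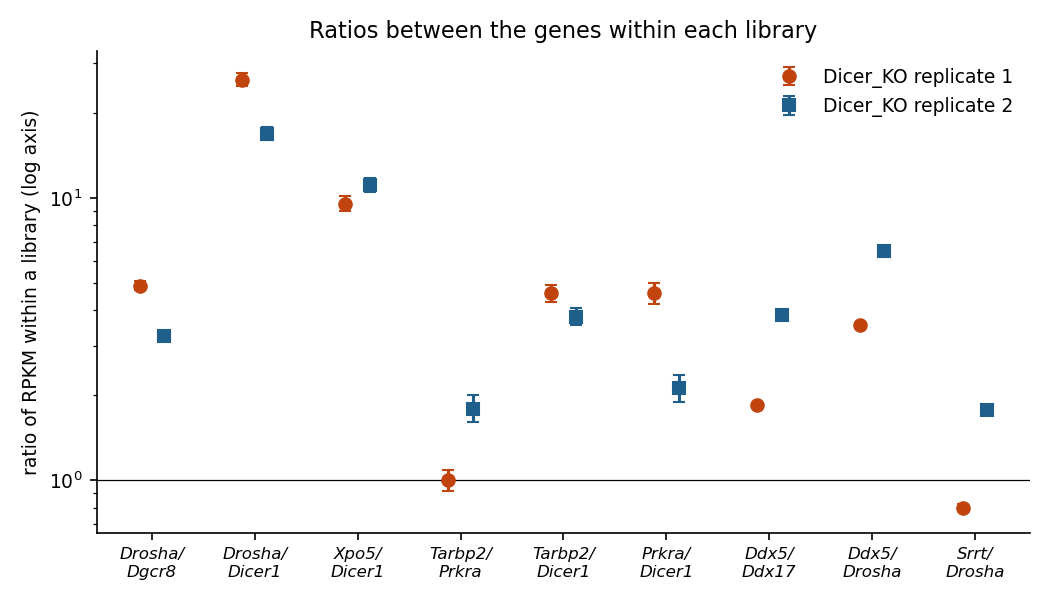
Ratio of the RPKM (union exon length) of gene pairs within each library, on a log axis, with 95% counting intervals as bars and a line at equality. The Ddx5 to Ddx17 ratio was 1.84 in replicate 1 and 3.85 in replicate 2, and the Srrt to Drosha ratio was 0.802 and 1.77.

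Differences between the libraries are given as the log2 ratio of replicate 1 over replicate 2 after TMM scaling, with a pseudocount of 1 and an exact 95% binomial interval that covers counting error only. With 1 library a passage there is no replicate check of any of them. None of the 9 genes was past 2-fold, a threshold that 21.4% of the 17788 genes tested passed (14.2% higher and 7.14% lower in replicate 1). Past 1.5-fold were 2 of the 9, against 39.6% of all genes (23.5% higher and 16.1% lower). Apart by over 25% of the lower level were 6, of which 3 were higher in replicate 1 (33.4% of all genes) and 3 lower (28.2%), against 61.6% of all genes. These shares are near or below those of all genes. At this depth counting error is small, and the interval of 8 of the 9 genes left out equality, as did that of 73.2% of all genes.

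The genes higher in replicate 1 were Prkra at 0.83 (0.65 to 1.01), Ddx17 at 0.53 (0.51 to 0.56) and Drosha at 0.35 (0.31 to 0.39). Those lower in replicate 1 were Srrt at -0.80 (-0.84 to -0.76), Ddx5 at -0.53 (-0.55 to -0.51), Xpo5 at -0.51 (-0.57 to -0.46), Dicer1 at -0.29 (-0.40 to -0.18) and Dgcr8 at -0.25 (-0.32 to -0.18). Tarbp2, at -0.02 (-0.12 to 0.08), was level between the libraries within counting error, and its sign turned with total-count scaling (0.10). The differences went in both directions, also between partners of one complex, as with Drosha and Dgcr8 or Ddx5 and Ddx17. As linear folds, Prkra was 1.77-fold higher in replicate 1, while Srrt was 1.74-fold and Ddx5 1.44-fold higher in replicate 2. Of the 9 within-library ratios that were computed, 7 differed by over 1.5-fold between the libraries, and these do not depend on the scaling. Several of the pairs share a gene, so the 9 ratios are not separate observations. No share over other gene pairs was computed, so the 7 of 9 has no background. Of single genes 39.6% were past 1.5-fold, which is not the like share for a ratio of 2 genes.

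Drosha, Ddx17 and Tarbp2 lie on chromosome 15, a chromosome that stood apart in these libraries. The median log2 ratio of the other 682 genes tested on it was 0.59 (quartiles 0.18 and 1.15), while the medians of the other 18 autosomes ran from -0.08 to 0.08. Drosha was 0.25 and Tarbp2 0.61 below the median of the chromosome on the log2 scale, and Ddx17 was within 0.06 of it. Beside their own chromosomes, 8 of the 9 genes were below the median, the exception being Prkra, which was 0.88 above the median of chromosome 2. Srrt lay furthest below, by 0.77. With no filter on low counts 6 of the 9 genes were below the median. Of the 7401 genes averaging 1000 counts or more, a level that 8 of the 9 genes reached, 58.8% were below 0. Of all genes tested 48.7% were below 0. These 2 shares are of genes below 0 and not below the median of their chromosome. They are thus not the like share for the 8 of 9. By definition about as many genes of a chromosome lie below its median as above it. Drosha and Ddx17 were below the median of chromosome 15 yet above 0. The part of abundance in the 8 of 9 was not tested. The difference in chromosome 15 moves with the higher Drosha and Ddx17 levels of replicate 1, and its part in them was not tested.

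**Figure D4:**
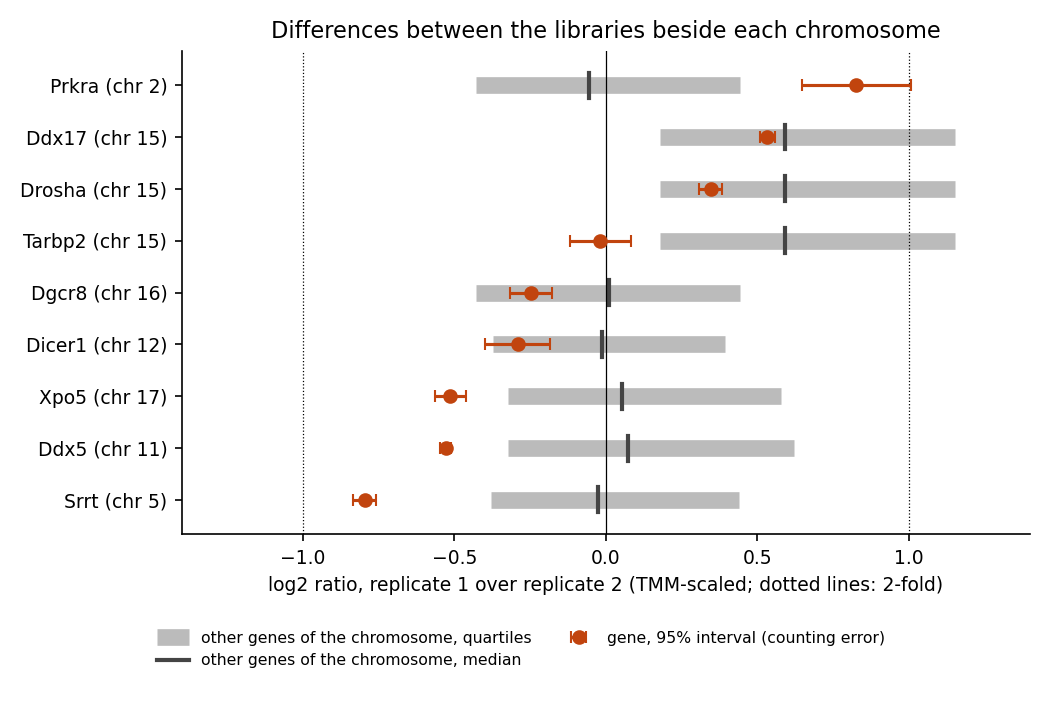
Log2 ratio of replicate 1 over replicate 2 for each gene (points with 95% counting intervals) beside the median (black mark) and quartiles (grey bar) of the other genes of its chromosome. The bar of chromosome 15 is centred at 0.59 and the others are near 0, and Srrt at -0.80 and Prkra at 0.83 lie furthest from equality.

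The rest of the pathway held few large differences, and most of its genes were lower in replicate 1. Of 25 other miRNA biogenesis factors, among them the cap-binding subunits, RNA-binding proteins that modulate processing, uridylyl transferases and the export cofactor Ran, none was past 2-fold, and 19 of 25 were below 0 (median -0.34) against 6 of the 9 genes (median -0.25). Over all genes tested 8659 of 17788 were below 0 (median 0.02), and over the 7401 genes whose counts averaged 1000 or more, a level that 8 of the 9 genes and all 25 factors reached, 58.8% were below 0 (median -0.09). With total-count scaling, which moved the median of all genes by 0.12, the counts below 0 were 19 of the 25 factors and 5 of the 9 genes. With that scaling 41.3% of all genes tested were below 0, and 47.7% of those averaging 1000 counts or more. The highest level in the list was that of the RNA helicase gene Ddx3x (198 and 326 RPKM) and the lowest that of Dis3l2, the exonuclease that degrades uridylated precursors (3.13 and 2.75 RPKM). Named after their values were seen, Ddx3x (-0.84) and the splicing factor gene Srsf3 (-0.59) were the 2 factors past 1.5-fold.

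All 7 nuclear export receptors, Xpo5 included, were below 0 (median -0.51), against 48.7% of all genes tested. All 7 averaged 1000 counts or more, and of the genes at that level 58.8% were below 0. Xpo1 is also among the 25 factors above. With total-count scaling 6 of the 7 were, against 41.3% of all genes tested and 47.7% of those averaging 1000 counts or more. Xpo4 was the only one past 2-fold, at 3025 and 5598 counts (-1.01). The transfer RNA receptor gene Xpot, at -0.01 (-0.06 to 0.03), was the one nearest equality and level within counting error. Xpo5 (-0.51) was the middle value of the list. Of 12 genes for proteins with a double-stranded RNA binding domain, Tarbp2, Prkra and Dgcr8 among them, 5 were above 0 and 7 below (median -0.02) and none was past 2-fold. The highest level among them was that of the RNA helicase gene Dhx9 (51.4 and 77.5 RPKM) and the lowest that of the RNA editing enzyme gene Adarb1 (0.976 and 0.749 RPKM). Prkra had the highest ratio of these, followed by Stau2 (0.72), a gene named after its value was seen. The third RNase III gene, Mrpl44 of the mitochondrial ribosome, had 18.1 and 22.3 RPKM, above Dicer1 and below Drosha in both libraries. Of 8 housekeeping genes, Hprt, the gene that E14TG2a cells lack in working form, was alone past 2-fold, at 17 and 33 counts (-1.04, interval -2.02 to -0.19). It fell short of 2-fold with total-count scaling (-0.92), as Xpo4 did (-0.89).

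**Figure D5:**
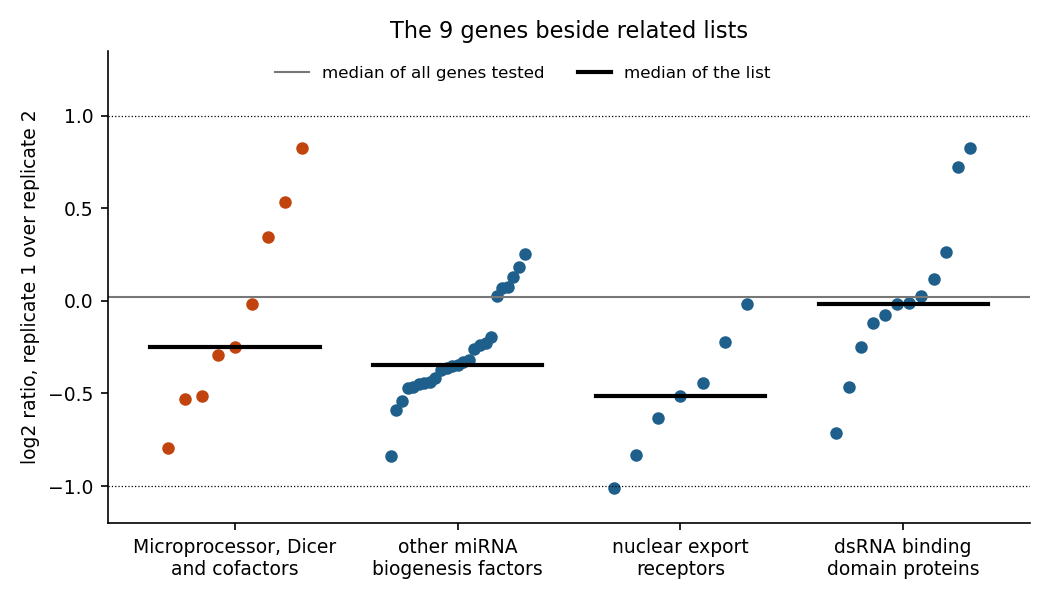
Log2 ratio of replicate 1 over replicate 2 for every gene of each list, with the list median as a black bar, the median of all genes as a grey line and 2-fold as dotted lines. Only Xpo4 at -1.01 passes 2-fold, and the medians are -0.25, -0.34, -0.51 and -0.02 from left to right.

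Several of the genes carry hairpin annotations of their own, and these are shown because Dgcr8 is a known target of the Microprocessor. The mature miRNAs below are those of the hairpins in exon 2 of Dgcr8 and of Mir3064, a hairpin that overlaps Ddx5 exons. They are from RefSeq (GRCm38.p6), with the seed (bases 2 to 8) in capitals.

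mmu-miR-1306-5p: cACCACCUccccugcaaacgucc
mmu-miR-1306-3p: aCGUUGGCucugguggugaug
mmu-miR-3618-5p: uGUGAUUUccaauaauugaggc
mmu-miR-3618-3p: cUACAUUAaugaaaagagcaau
mmu-miR-3064-5p: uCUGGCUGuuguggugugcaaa
mmu-miR-3064-3p: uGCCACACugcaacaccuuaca

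No seed is shared among them. The Mir1306 hairpin (chr16:18284239-18284317) lies in coding sequence of Dgcr8 and the miR-3618 hairpin (chr16:18284550-18284637) in its untranslated sequence. Both hairpins were listed at 0 counts in both libraries. Reads that overlapped several annotated genes were ignored in the counting, and the exon sequence of Dgcr8 under these hairpins is covered by both annotations, so the 0 sets no upper limit and is no measure of cleavage. Mir3064 in Ddx5 and Mir693 in an Xpo5 intron were also at 0 in both libraries. So was Gm25994, another hairpin annotation that shares 101 exon bases with Ddx5. Mir7036, which lies in an intron of the longest coding Srrt transcript and in annotated exon of another, had 6 and 8 counts. Gm47288, a hairpin annotation that shares 72 exon bases with Drosha, is not listed in the counts. Of the exon bases of Dgcr8, 10.7% are shared with Trmt2a on the opposite strand (1180 and 1350 counts), so the counts of that stretch are uncertain if strand was not used. The same-strand annotation Gm49776 covers 4.25% of the Dgcr8 exon bases and is not listed in the count files.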

How the data were processed

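RNA was extracted with Trizol and made into polyadenylated TruSeq libraries. The authors trimmed and aligned the reads (STAR 2.4.2a, mm10) and deposited raw counts per gene from featureCounts 1.4.5-p1 with an Ensembl annotation of GRCm38, leaving out reads on overlapping regions. The labels name a reverse-stranded protocol. Whether strand was used in the counting, and how reads with several hits were counted, is not given in the sources used here.

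Genes were matched by Ensembl identifier to GENCODE M21 (GRCm38). Of 43629 genes, 1167 had no entry there, and 17637 of the 17788 genes tested (a mean of at least 10 counts) had a length. CPM and RPKM were computed from total counts and the union of annotated exons, with exact 95% Poisson intervals. Ratios of replicate 1 over replicate 2 used TMM scaling (edgeR 4.0.16, R 4.3.3), a pseudocount of 1 and exact binomial intervals (scipy 1.17.1). They were called past 2-fold. The intervals and the floor of 3 counts cover counting error only. Both libraries belong to 1 group and nothing in the labels says that they came from separate cultures, so no test was run. The calculation was tested on data simulated with counting error only and total-count scaling. All 200 genes changed 3-fold were recovered there, and 123 unchanged genes were called past 2-fold. The real libraries differed by far more than counting error, so the simulation checks the calculation and not the spread between libraries. Alternatives were DESeq2 1.42.0 size factors, total or raw counts, other filters, folds, pseudocounts and lengths, and each library alone. The comparison with genes within 1 Mb, that with abundant genes, the coding transcript length and levels with TMM-scaled library sizes were added after seeing the data.

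All 9 genes are named, and of the other lists each gene past 2-fold and otherwise the highest and lowest level. Cell type markers were outside this rule, and those named were chosen after their values were seen. The genes and the lists were chosen with earlier results of these data known.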

Additional observations from a re-analysis of the deposited data

How the results depend on the processing

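No paired analysis was possible because the series has a single group of 2 libraries. The mean level of Dicer1 (2.05 RPKM) ranged from 1.92 to 2.17 with each library left out, and was 3.48 RPKM with the length of the longest annotated or the longest coding transcript. Of the 9 genes, 0 were past 2-fold, 2 past 1.5-fold and 6 apart by over 25% of the lower level. Over all genes, 3803 were past 2-fold, 7045 past 1.5-fold, 10957 apart by over 25% and 1016 past 4-fold, while 1827 of the 13005 genes that averaged 100 counts or more and 7938 of all 43629 genes were past 2-fold. The single export receptor past 2-fold, Xpo4, and the single housekeeping gene, Hprt, fell short of it with total-count scaling and with raw counts, which left 0 in each list. Under other scalings and another pseudocount, 34 of 36 values of the 9 log2 ratios kept their sign. The exceptions were those of Tarbp2 with total and with raw counts, both 0.10. The number of the 9 genes below the median of their chromosome was 8, and 6 with no filter and 7 within 1 Mb. Depth limits none of the 9 levels, whereas the spread between lines or cultures rests on 2 libraries.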
